A study of Schizosaccharomyces pombe with 5 samples.

Results

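The transcriptome of wild-type fission yeast (Schizosaccharomyces pombe) growing in rich medium was described from the 2 input libraries of an RNA immunoprecipitation study, which were chosen by their labels and are 2 of its 5 libraries. All 6727 counted genes were ranked by CPM (counts of a gene per 1000000 counts of its library). Every library of the study came from strain yAS99, labelled wild type, grown in YES medium at 32 °C with shaking at 200 rpm and cross-linked with formaldehyde. The input was total RNA extracted with hot phenol, without an antibody, in biological replicates 1 and 2. The other libraries were 2 immunoprecipitations of Slr1p, the fission yeast homolog of the RNA-binding protein LARP1, and 1 with non-immune IgG. The Slr1p pair is used below for the difference between replicates, beside the input pair and in a test over both. The IgG library is used only for the levels of single genes.

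A yeast that divides quickly on glucose spends much of its transcription on the machinery that makes proteins, because each new cell needs a full set of ribosomes. Ribosomal protein genes of fission yeast are known for a promoter element called HomolD, and in part of them for a second one called HomolE. Fission yeast ferments glucose to ethanol even in air, through glycolysis, pyruvate decarboxylase and alcohol dehydrogenase.

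The promoters of the most abundant mRNAs are shown first, because they differ between the leading groups. They are the 80 bases before the annotated transcript start, from RefSeq assembly ASM294v3, 5′ to 3′ on the strand of the gene. The 2 highest genes of each ribosomal subunit and the 4 highest of glycolysis are given. Capitals mark HomolD (CAGTCACA, or its reverse complement TGTGACTG), HomolE (the first run of capitals in rps102) and the TATA box (TATAAA or TATATA).
rps102, 40S protein eS1, chrI:898963-899042, minus strand: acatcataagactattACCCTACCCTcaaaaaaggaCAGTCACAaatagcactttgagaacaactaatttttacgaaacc
rps401, 40S protein eS4, chrII:3245050-3245129, plus strand: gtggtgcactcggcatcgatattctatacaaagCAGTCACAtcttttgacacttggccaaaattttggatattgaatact
rpl26, 60S protein uL24, chrII:1558637-1558716, minus strand: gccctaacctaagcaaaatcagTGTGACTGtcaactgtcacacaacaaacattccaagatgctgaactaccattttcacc
rpl101, 60S protein uL1, chrIII:612580-612659, minus strand: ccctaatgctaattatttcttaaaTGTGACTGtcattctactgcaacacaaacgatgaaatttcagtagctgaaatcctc
tdh1, glyceraldehyde-3-phosphate dehydrogenase, chrII:2807515-2807594, plus strand: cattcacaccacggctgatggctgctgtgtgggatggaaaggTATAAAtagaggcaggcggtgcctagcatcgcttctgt
eno101, enolase, chrII:2201116-2201195, plus strand: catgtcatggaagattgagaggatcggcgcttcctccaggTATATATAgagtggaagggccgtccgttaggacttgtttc
fba1, fructose-bisphosphate aldolase, chrII:1688241-1688320, plus strand: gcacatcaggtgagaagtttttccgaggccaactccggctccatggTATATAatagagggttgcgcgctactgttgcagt
gpm1, phosphoglycerate mutase, chrI:5174655-5174734, minus strand: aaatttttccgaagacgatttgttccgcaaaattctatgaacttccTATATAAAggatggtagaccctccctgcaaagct

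The 4 ribosomal protein promoters held HomolD and no TATA box, and the 4 glycolytic promoters held a TATA box and no HomolD. The TATA box was TATAAA in tdh1 and gpm1. In eno101 and fba1 it was only TATATA, a variant added after these promoters had been seen, so its presence there is no test. Over the 250 bases before the start, searched on both strands, HomolD was found in 91 of 143 ribosomal protein promoters (63.6%), against 134 of 5104 protein-coding promoters (2.63%). HomolE was found in 41 of the 143 (28.7%) and in 1.21% of all. In the 91 promoters the centre of HomolD lay at a median of 47 bases before the start, with quartiles at 53 and 43 bases.

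The share of promoters with HomolD fell down the ranking, in which ribosomal protein genes stand high. HomolD was in 55 of the 100 most abundant coding genes, in 23.0% of the next 200, in 2.14% of the 700 after those and in 0.439% of the 4104 lower ones. Of the 55 genes, 46 encode ribosomal proteins. The other 9 were tpi1 of glycolysis, the translation factor genes tif1, tef3, tef101 and tef103, the ribosome-associated chaperone gene sks2, tma19, and the amino acid synthesis genes ilv5 and lys9. These 9 are 29.0% of the 31 genes of the first 100 that do not encode ribosomal proteins. Ribosomal protein genes were set apart only in the first 100, so how far the fall holds outside them is not given here. Within the ribosomal protein genes the median level was 2157 CPM with HomolD (91 genes) and 1896 CPM without it (52 genes).

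The TATA box was looked for in the last 50 bases before the start, on the strand of the gene; the variant TATATA was added after the printed promoters had been seen. It was found in all 9 glycolytic and fermentation genes among the 100 most abundant, centred between 38 and 27 bases before the start, and in 2 of the 69 ribosomal protein genes among them. Its share over all coding promoters was 12.7%, or 15.6% with both strands searched. These figures count TATAAA and TATATA together, and TATAAA alone was not counted. As the variant was taken from printed genes among the 9, the contrast with all promoters is a description. Of 10 histone genes 6 held it. The promoter of tpi1 was the only one of the 9 glycolytic genes with both elements. A match describes letters in a window and does not show that a factor binds there.

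Gene counts totalled 64236988 in replicate 1 and 62802923 in replicate 2. At least 1 CPM in both libraries was reached by 5783 genes, of which 4825 code for protein, at least 100 CPM by 1175 and at least 1000 CPM by 210. No count in either library was found for 132 genes, 28 of them protein-coding. Protein-coding genes took 98.6% and 98.4% of the counts, and mitochondrially encoded genes 0.000937% and 0.00154%. The 11 snoRNA and snRNA genes took 0.0107% and 0.0101%, so the counts are mostly of nuclear-encoded mRNA. Ribosomal RNA has no list of its own, so shares here are of the gene counts and not of total RNA. The mitochondrial gene cox1 had 5.17 and 7.85 CPM in input but 22168 CPM in the IgG library. For the small nucleolar RNA snR30 these levels were 37.6, 39.1 and 2317 CPM. Why the libraries differ in this way was not tested. In bulk RNA, fewer cells that express a gene and less of its RNA per cell cannot be told apart.

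Few genes filled a large part of the transcriptome. The 100 most abundant took 40.5% of replicate 1 and 38.7% of replicate 2, the 10 most abundant 7.66% and 9.07%, and 50% of all counts fell on 150 and 168 genes. Of the 100 highest by mean CPM, 69 encode ribosomal proteins (36 of the 60S and 33 of the 40S subunit), 9 belong to glycolysis and fermentation and 5 are elongation factors. A single noncoding RNA was among them.

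Ribosomal protein mRNAs were the largest group. The 143 genes took 36.7% of replicate 1 (95% Wilson interval 36.71 to 36.74%) and 31.6% of replicate 2 (31.62 to 31.64%), a mean of 34.2 ± 3.60% (SD, n = 2). Wilson intervals cover counting error only, and the gap between the replicates was far wider. The 60S subunit took 18.9 ± 1.90% and the 40S subunit 15.3 ± 1.70% (SD, n = 2). Per length, as TPM (counts over annotated transcript length, scaled to the same total in each library), the share of ribosomal protein mRNAs was 53.8 ± 3.36% (SD, n = 2), because these transcripts are short. Together with the elongation and initiation factors they took 38.8 ± 3.37% of the counts.

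**Figure D1:**
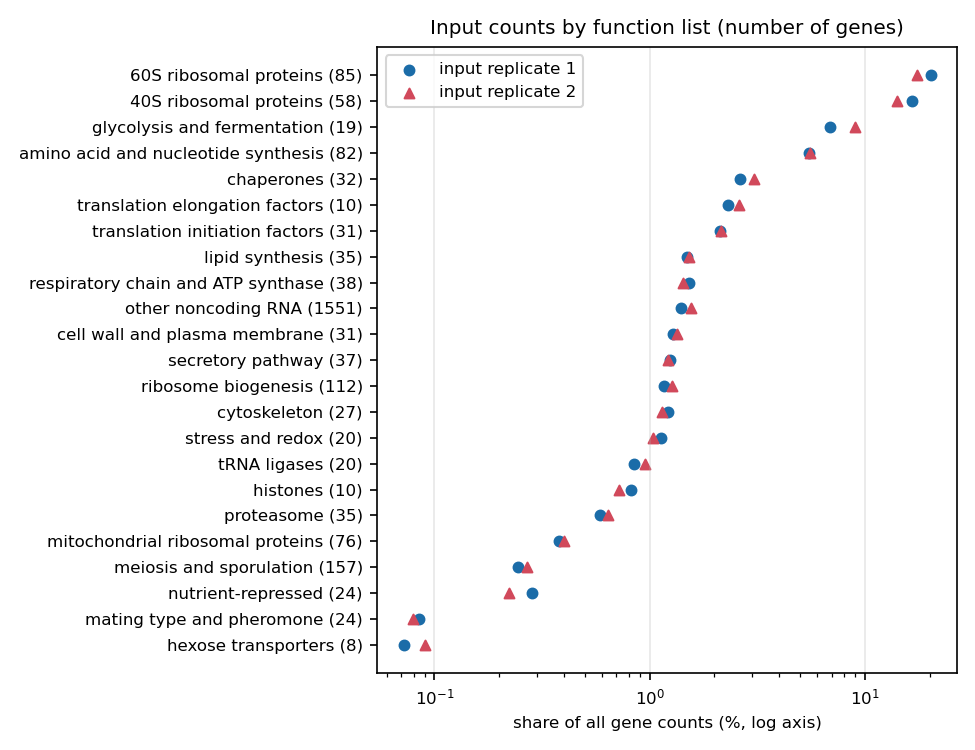
Share of all gene counts (x axis, %, log scale) taken by each function list (y axis, number of genes in brackets) in input replicate 1 (circles) and replicate 2 (triangles). The 60S and 40S ribosomal proteins stand highest, at 18.9% and 15.3% on average, and are lower in replicate 2, while glycolysis and fermentation is higher there.

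Glycolysis and fermentation came next, with 6.86% of replicate 1 and 8.97% of replicate 2 from 19 genes. It supplied 8 of the 10 most abundant genes. The highest was tdh1, at 11533 and 17663 CPM in replicates 1 and 2 (14598 ± 4335, SD, n = 2). Enolase (eno101) stood at 9372 and 13831 CPM, and fructose-bisphosphate aldolase (fba1) at 9043 and 11746 CPM. Phosphoglycerate mutase (gpm1) followed at 6824 and 7859 CPM. All 4 were higher in replicate 2, tdh1 by the most.

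Triosephosphate isomerase (tpi1) went the other way, at 7326 and 6291 CPM. Alcohol dehydrogenase (adh1), which makes ethanol, stood at 5484 and 7670 CPM, and phosphoglycerate kinase (pgk1) at 5083 and 7080 CPM. Pyruvate kinase (pyk1) was at 5188 and 6255 CPM and pyruvate decarboxylase (pdc101) at 4225 and 5758 CPM. These 9 genes held the steps from aldolase to ethanol.

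The upper steps and the other copies were lower; those named next were chosen after their values were seen. Phosphoglucose isomerase (pgi1) had a mean of 1632 CPM, phosphofructokinase (pfk1) 1314 CPM and the hexokinase genes hxk2 and hxk1 897 and 644 CPM. The other genes for the abundant enzymes differed in level. The alcohol dehydrogenase gene adh4 had 444 CPM beside adh1 and gpd3 had 81.4 CPM beside tdh1, both above the median of 39.6 CPM over coding genes. Far lower were eno102, at 1.58 CPM beside eno101, and pdc102, at 0.307 CPM beside pdc101. In the sequence of the reference, 100% of the 50-base windows in the exons of eno101, eno102, pdc101 and pdc102 occur once in the genome, and 83.4% and 82.0% in tdh1 and gpd3. Reads of these pairs could therefore be told apart for the most part.

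**Figure D2:**
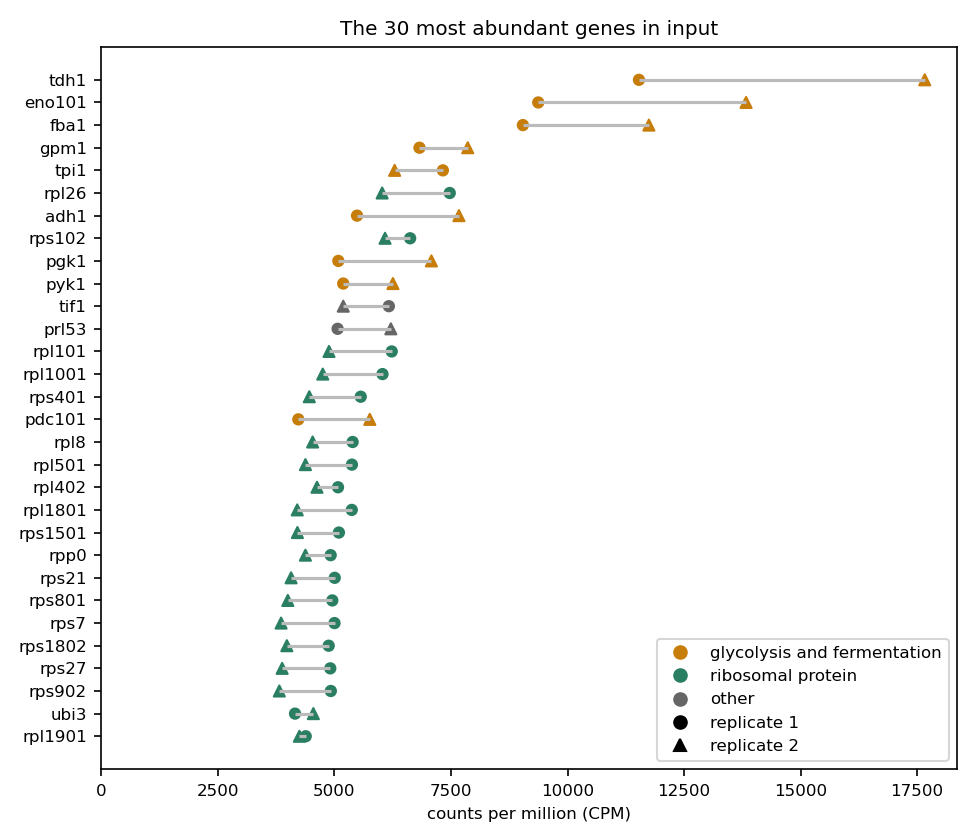
CPM (x axis) of the 30 genes with the highest mean in input, in replicate 1 (circles) and replicate 2 (triangles), joined by a line, with colours for glycolysis and fermentation, ribosomal proteins and other genes. Of the 9 glycolytic genes 8 lie higher in replicate 2, and of the 19 ribosomal protein genes all but ubi3 lie lower.

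The most abundant ribosomal protein mRNAs were rpl26 (60S protein uL24), at 7473 and 6023 CPM, and rps102, at 6624 and 6085 CPM. Next came rpl101 at 6228 and 4883 CPM, rpl1001 (60S protein L10) at 6031 and 4749 CPM and rps401 at 5564 and 4460 CPM. The lowest of each subunit were rps1401 with a mean of 537 CPM and rpl1603 with 110 CPM. Of the 30 most abundant genes, 19 encode ribosomal proteins. The other two outside glycolysis were tif1, the RNA helicase eIF4A of translation initiation, at 6167 and 5189 CPM, and the noncoding RNA prl53.

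By TPM the order was led by ribosomal proteins with short transcripts. These were rpl26 at 14166 TPM, rps21 at 10828 TPM and rps27 at 10007 TPM, ahead of tdh1 at 9733 TPM and gpm1 at 8976 TPM. The remaining genes of the first 10 were rpl3401, ubi3 (a ubiquitin and ribosomal protein fusion), rps2201, rps2502 and fba1. Between these neighbours the replicates differed by as much as the levels did: tdh1 had an SD of 3315 TPM (n = 2).

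Most fission yeast ribosomal proteins have more than 1 gene. For 58 proteins with 2 or 3 copies, the ratio of the highest to the lowest copy had a median of 1.96, and it was above 2 for 25 proteins and above 10 for 4. The same copy was the higher in both replicates for all 58. The widest were rpl3401 over rpl3402 (4116 against 203 CPM), rpl1602 over rpl1603 (1586 against 110 CPM), rpl101 over rpl102 (5556 against 391 CPM) and rpl3001 over rpl3002 (2916 against 236 CPM). In all 8 genes 100% of the 50-base exon windows are unique in the genome. The median over the 143 genes was also 100%, and 4 genes, rpl301, rpl302, rpl1201 and rpl1202, were under 50%. How reads with several matches were counted is not given in the sources used here, so the levels of those 4 are uncertain.

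With the copies of a protein summed, levels within the ribosome lay closer together than those of all coding genes. The 60S list ran from 1558 TPM (rpl3, whose copies are among the uncertain genes) to 14166 TPM (rpl26). The 40S list ran from 2019 TPM (rps29) to 12592 TPM (rps15). Over 47 proteins of the 60S list the SD of log2 TPM was 0.61 and over 33 of the 40S list 0.75, against 2.35 over all 4825 coding genes at 1 CPM or more in both libraries. Taken as single genes the 60S list had an SD of 1.23 and the 40S list 0.88. The median was 6174 TPM for a 60S protein and 7848 TPM for a 40S protein, beside 23.1 TPM for a coding gene.

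Other complexes had their own level. The CCT chaperonin, the Arp2/3 complex and both parts of the proteasome had lower SDs than either ribosomal subunit. The 8 genes of the CCT chaperonin, which folds actin and tubulin, lay within a ratio of 1.82, from 113 TPM (cct5) to 206 TPM (cct2), with an SD of 0.28 on the log2 scale. The Arp2/3 complex, which branches actin, had an SD of 0.44 and a median of 220 TPM over 7 genes. The 14 genes of the proteasome core had an SD of 0.46 and a median of 197 TPM, and 17 of its regulatory particle 0.52 and 111 TPM. Initiation factor eIF3 was less even, with an SD of 0.82 from tif310 at 127 TPM to sum1 at 743 TPM. ATP synthase had an SD of 0.88, from atp1 at 104 TPM to atp2 at 1017 TPM. The nuclear-encoded subunits of cytochrome bc1 and oxidase had an SD of 0.79 and a median of 419 TPM. These members were listed with their function known, so their likeness is a description.

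**Figure D3:**
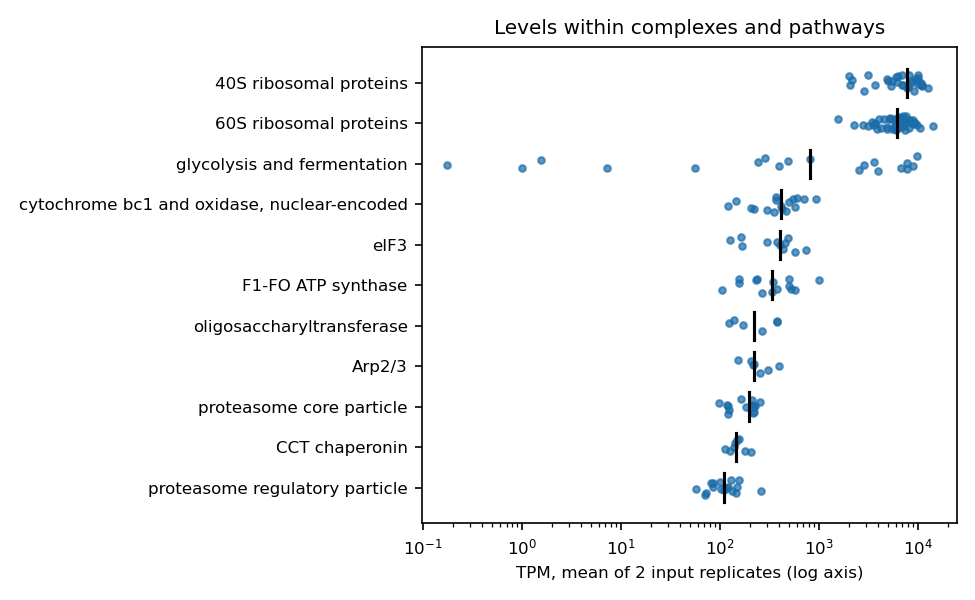
TPM (x axis, log scale, mean of the 2 input libraries) of each protein (points) of a complex or pathway, with the median as a bar and the copies of each ribosomal protein summed. Both ribosomal subunits stand highest, with medians of 7848 and 6174 TPM, while the genes of glycolysis run from 0.173 to 9733 TPM.

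Among the elongation factors, tif512 (eIF5A) had 4636 and 3912 CPM, and tef3, the fungal elongation factor eEF3, 3567 and 4606 CPM. A subunit of the exchange factor of eEF1, tef5, had 4459 and 3712 CPM. The 3 genes for eEF1A, tef101, tef102 and tef103, had means of 2865, 1361 and 3358 CPM, but only 34.4, 24.9 and 27.7% of their 50-base windows are unique, so these are uncertain. The same holds for eft201 of elongation factor 2, the lowest of the list at 495 CPM with 15.1% unique windows. Poly(A)-binding protein (pabp) had 1050 and 1590 CPM. Ribosome biogenesis took 1.22 ± 0.07% of the counts over 112 genes, led by snu13 at 1233 CPM, fib1 (fibrillarin) at 1009 CPM and gar1 at 874 CPM. Mitochondrial ribosomal proteins were lower, with a median of 44.6 CPM over 76 genes, and 20 tRNA ligases had a median of 410 CPM.

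Amino acid and nucleotide synthesis came after the ribosomal proteins and glycolysis, with 5.47% and 5.57% of the counts over 82 genes. Its highest members were eca39 (branched-chain aminotransferase) at 3980 and 3656 CPM, met26 (methionine synthase) at 2547 and 3398 CPM and ilv5 at 2156 and 2604 CPM. Outside the lists, the arginine and proline breakdown genes car2 and put2 had 3693 and 2388 CPM. Chaperones took 2.64% and 3.06%, led by sks2 at 3932 and 4418 CPM, ssa2 (Hsp70) at 2995 and 4950 CPM and cyclophilin ppi1 at 3540 and 2585 CPM, with hsp16 the lowest at 44.6 CPM. The respiratory chain and ATP synthase took 1.53% and 1.43%, led by atp2 at 1998 CPM. Lipid synthesis took 1.498% and 1.517%, led by the desaturase ole1 at 1528 CPM.

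Actin (act1) stood at 4531 and 4069 CPM, and the plasma membrane proton pump pma1 at 2632 and 2968 CPM, while its second copy pma2 had 0.518 CPM. Cell wall and plasma membrane genes together took 1.31 ± 0.04%, the secretory pathway 1.23 ± 0.02% with arf1 highest at 1518 CPM, and the cytoskeleton 1.18 ± 0.05%. Histones took 0.822% and 0.718%, and the H3 genes hht1, hht2 and hht3 had means of 1140, 1378 and 1089 CPM. Stress and redox genes took 1.08 ± 0.07%, led by sod1 (superoxide dismutase) at 2769 CPM and trx1 (thioredoxin) at 2102 CPM. The proteasome took 0.613 ± 0.04%, led by rpn8 at 368 CPM.

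The abundant genes also differed from the rest in their coding sequence. The 100 most abundant coding genes had a median coding length of 596 bases and a GC content of 47.8%, against 1197 bases and 39.1% in genes below rank 1000. The 31 of them that are not ribosomal protein genes had a coding length of 1245 bases and 48.5% GC, and 12.9% of them have an intron. Of the 69 ribosomal protein genes 43.5% have one, of all 100 genes 34%, and below rank 1000 49.4%. Lysine was encoded by AAG at 87.0% in the first 100 and 34.6% below rank 1000. Arginine was encoded by CGT at 74.4% and 26.5%, glutamate by GAG at 61.3% and 30.6%, and asparagine by AAC at 77.6% and 32.0%. Isoleucine was encoded by the codon ATA at 1.13% and 25.1%. The ribosomal protein genes and the other genes of the first 100 used AAG at 85.7% and 88.6%.

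Noncoding RNAs with SPNCRNA identifiers took 1.39% and 1.55% of the counts over 1551 genes, of which 918 reached 1 CPM in both libraries. A single RNA, prl53, a polyadenylated noncoding RNA, gave 36.3% and 40.1% of these counts, at 5068 and 6209 CPM. The next was prl3 at 662 and 615 CPM, then SPNCRNA.863 at 105 and 170 CPM, with 45.2% unique windows. The remaining 7 of the first 10, from SPNCRNA.133 to rse1, had means between 77.6 and 118 CPM. Tf2 retrotransposons had at most 1.47 CPM each, with few unique windows (9.06% in Tf2-11, the highest), so their level is uncertain.

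The markers of rich medium went with the label for some nutrients and not for others. Genes that glucose represses were low, fbp1 (fructose-1,6-bisphosphatase) at 2.69 and 2.72 CPM and inv1 (invertase) at 3.53 and 3.58 CPM. Thiamine-repressed nmt1 was at 0.420 and 0.350 CPM. However, thi2, thi4 and the thiamine-repressible acid phosphatase pho4 had means of 36.0, 51.7 and 104 CPM. The phosphate-repressed acid phosphatase pho1 was abundant, at 1243 and 802 CPM, as was the phosphate transporter pho84, at 554 and 365 CPM, whereas tgp1 had 8.61 and 8.98 CPM. The copper transporter genes ctr4 and ctr5 had means of 164 and 193 CPM, and zinc transporter zrt1 138 CPM.

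Iron-repressed genes were between these, with means of 115 CPM for str1, 42.8 for sib1, 32.5 for sib2, 32.4 for fip1, 29.4 for str2, 20.3 for frp1, 13.7 for fio1 and 7.42 for str3. The ammonium transporters amt1 and amt3 had 23.1 and 3.13 CPM, permease per1 30.3 CPM and glycerol dehydrogenase gld1 2.59 CPM. The glucose transporter gene ght5 had 35.04 and 43.87 CPM, while ght8 had 554 and 682 CPM and ght2 116 and 155 CPM. Both ght8 and ght5 share sequence with other copies, with 75.3% and 70.4% unique windows. The lowest hexose transporter was ght6 at 0.347 CPM.

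Markers of meiosis were low beside the cell cycle kinase gene cdc2 at 110 CPM. The means were 3.54 CPM for spo6, 3.28 for mei4, 0.749 for rec8 and 0.197 for mde2. Of 157 genes of meiosis and sporulation, 48 were under 1 CPM in both libraries and 51 reached 10 CPM in both, with mug64 the highest at 299 CPM. Among pheromone and mating genes, the protease gene sxa1 had 487 CPM, mam4 73.2, byr1 60.5, mfm2 42.1 and mam1 28.6 CPM. The genes gpa1, spk1, mam3, byr2 and sxa2 had 22.6, 20.9, 19.1, 13.9 and 11.7 CPM, and ste6, ste4, map4, fus1 and map3 between 5.98 and 9.55 CPM. The rest were lower, with mam2 at 2.46, map1 at 2.44, map2 at 0.701, mfm1 at 0.658 and mfm3 at 0.518 CPM. The genes mat1-Mc, mat1-Mi, mat3-Mc and mat3-Mi had at most 0.189 CPM, but 0% of their windows are unique, so the mating type cannot be read from them.

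The Slr1p gene slr1 had 74.0 and 103 CPM and the La protein gene sla1 153 and 227 CPM. One marker gene went against an unmarked wild type: ura4, for orotidine 5′-phosphate decarboxylase of uracil synthesis, had 1 count in replicate 1 and 0 in replicate 2. A count of 0 allows up to 0.0478 CPM there (3 counts). The other libraries had 1, 1 and 0 counts. All 50-base windows of ura4 are unique, and the other marker genes were present, with means of 896 CPM for leu1, 527 for lys1, 402 for his3, 176 for ade6 and 113 for arg3. The labels give no ura4 genotype.

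The 2 input libraries differed by more than the Slr1p pair did. Over 4581 genes at 10 CPM or more, log2 of replicate 2 over replicate 1 had a median of 0.19 and an SD of 0.25, against an SD of 0.14 in the Slr1p libraries over the same genes. Of these genes 173 (3.78%) differed by more than 1.5-fold and 3 by more than 2-fold in CPM. After scaling by TMM, edgeR's trimmed mean of ratios, 39 (0.851%) differed by more than 1.5-fold and 1 by more than 2-fold. The common biological coefficient of variation, edgeR's measure of spread beyond counting error, was 0.125 for the input pair and 0.0669 for the Slr1p pair. With 1 library a side there is no test of these differences within the input.

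The difference moved with abundance and transcript length. Its median was 0.31 at 10 to 30 CPM, -0.14 at 1000 to 3000 CPM and -0.25 above 3000 CPM. It was -0.09 for transcripts up to 500 bases and 0.41 above 5000 bases, where 127 of 129 genes were higher in replicate 2. Across genes, which are not independent, Pearson's r was -0.40 with log2 mean CPM and 0.34 with log2 length, and -0.32 with log2 mean CPM among transcripts over 1000 and up to 2000 bases. The part of either in the list differences below was not tested.

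The lists lay on both sides of the median of 0.19. Ribosomal protein mRNAs were lower in replicate 2, with medians of -0.27 for the 40S and -0.19 for the 60S list and 122 of 143 genes below 0. Histones had a median of -0.22 over 10 genes and the respiratory chain and ATP synthase -0.15 over 38. Glycolysis and fermentation had a median of 0.36 over 16 genes, ribosome biogenesis 0.35 over 112 and elongation factors 0.30 over 10. Of the 10 elongation factor genes 8 were above 0. They include tef101, tef102 and tef103, at 0.54, 0.50 and 0.46, whose few unique windows leave them uncertain. The other 2, tif512 and tef5, were at -0.24 and -0.26. Scaling the libraries by TMM shifts all of these medians by -0.17. The median becomes 0.02 for all genes, -0.44 and -0.36 for the 40S and 60S lists and 0.18 for glycolysis. Within the same length range, glycolysis was at 0.40 (12 genes), ribosome biogenesis at 0.36 (52 genes) and the 60S list at -0.07 (6 genes), against 0.15 for all 1945. In the Slr1p pair the ribosomal protein genes had a median of 0.10 and all genes -0.16, so the lower level in replicate 2 was not seen there.

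**Figure D4:**
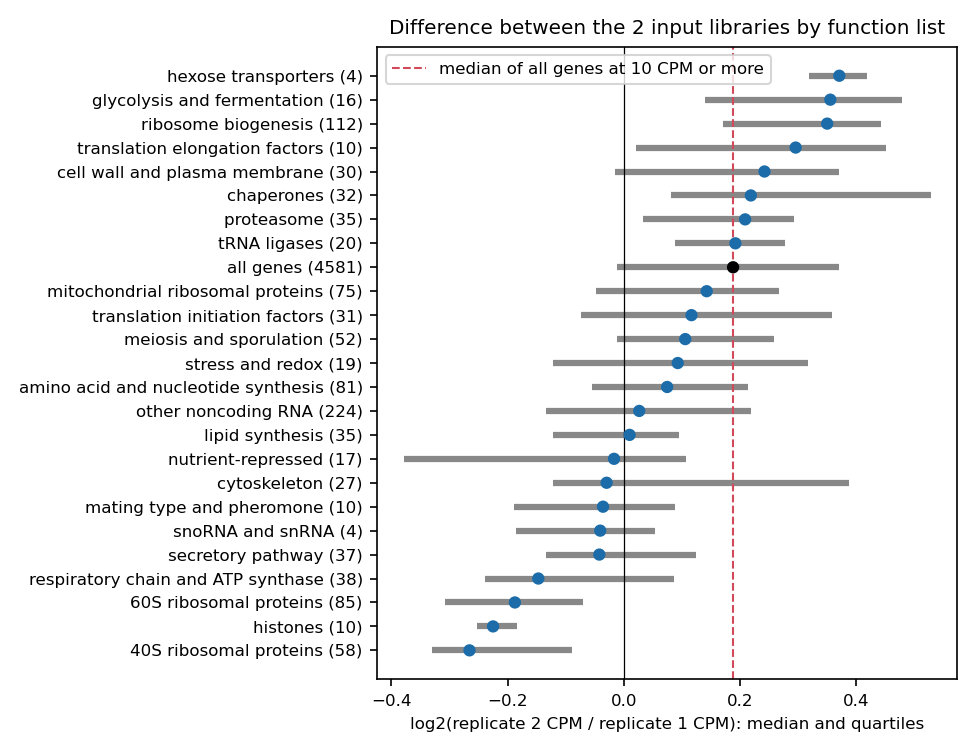
Median (point) and quartiles (bar) of log2 replicate 2 CPM over replicate 1 CPM (x axis) in input for each function list (y axis, number of genes at 10 CPM or more in brackets). The dashed line is the median of all genes, 0.19; the 40S, histone and 60S lists lie below 0 and glycolysis, ribosome biogenesis and elongation factors above the line.

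Among genes at 10 CPM or more, the highest in replicate 2 relative to replicate 1 was urg1, a gene known to be induced by uracil, at 53.4 and 112 CPM. The myosin heavy chain myp2 had 10.5 and 21.0 CPM, the chromatin remodeller hrp3 17.9 and 33.0 CPM and tps3, of trehalose synthesis, 72.0 and 132 CPM. The other 6 of the first 10, SPCC1235.01, SPNCRNA.1115, uds1, ers1, SPBC16E9.02c and coy1, were between 0.79 and 0.83 on the log2 scale. In the Slr1p pair urg1 and tps3 were at 1.16 and 0.19, and the other 8 were between -0.40 and -0.01, around that pair's median of -0.16 over all genes.

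Among the same genes the lowest in replicate 2 relative to replicate 1 was SPNCRNA.1103, at 14.1 and 6.99 CPM, then SPCC1795.12c at 33.7 and 20.9 CPM. Of the 10 lowest, 4 are nutrient-repressed genes, pho1 at -0.63, str1 at -0.61, pho84 at -0.60 and fip1 at -0.58. That list holds 17 of the 4581 genes at 10 CPM or more. Its median was -0.02, and 7 of the 17 were higher in replicate 2. In the Slr1p pair 4040 of the 4581 genes were lower in replicate 2. The 4 named genes were also lower there, at -0.48, -0.69, -0.58 and -0.77. So were SPNCRNA.106 at -0.57 and SPCC1795.12c at -0.44, whereas SPNCRNA.1103 was at 0.30 and isp3 at 0.14, and ibp1 and pfl8, at -0.25 and -0.18, lay near the median of that pair. The remaining 4, isp3, SPNCRNA.106, ibp1 and pfl8, were between -0.59 and -0.57 in input.

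The effect of the replicate number, averaged over both kinds of RNA, was tested with edgeR's quasi-likelihood test. The model held the 2 input and 2 Slr1p libraries, with terms for the kind of RNA and the replicate number. A call therefore does not show a difference in each kind. For example, fio1 was called with a log2 CPM ratio of -0.38 in input and -1.10 in the Slr1p pair. Of 6307 genes tested, 3 were higher in replicate 2 (0.0476%) and 4 lower (0.0634%) at an adjusted p under 0.05, or 7 in all (0.111%). At an unadjusted p under 0.05 in edgeR there were 141 of the 6307. That is below the share of 0.05 that p-values without any difference would give on average. The labels do not say that a number marks the same culture in both kinds of RNA, so p-values measure the spread of these 4 libraries, with 1 residual degree of freedom. The median prior degrees of freedom in edgeR were infinite, so the spread used for a typical gene was pooled over all genes. A small p-value therefore does not reflect the spread of that gene alone.

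The higher genes were urg1, urg2 and eno102. In replicates 1 and 2 urg1 had 53.4 and 112 CPM in input and 30.9 and 69.2 CPM in the Slr1p libraries. On the log2 scale that is 1.09 (SE 0.15), with an adjusted p = 4.36e-10 in edgeR. The gene urg2, for a uracil phosphoribosyltransferase and also known as uracil-regulated, had 105 and 167 CPM in input and 32.5 and 58.4 CPM in the Slr1p libraries (0.74 on the log2 scale, SE 0.15, edgeR adjusted p = 9.69e-04). The third gene of the name, urg3, did not pass (0.15 in input and 0.23 in the Slr1p pair). The minor enolase eno102 had 0.747 and 2.42 CPM in input and 1.33 and 2.46 CPM in the Slr1p libraries (1.25, SE 0.27, edgeR adjusted p = 0.00584).

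Of the 4 lower genes, 3 take up iron. The siderophore transporter str1 had 139 and 91.1 CPM in input and 100.7 and 62.3 CPM in the Slr1p libraries, -0.67 on the log2 scale (SE 0.14, adjusted p = 0.0058 in edgeR). The iron permease fip1 had 38.8 and 25.95 CPM in input and 40.1 and 23.5 CPM in the Slr1p libraries (-0.70, SE 0.16, edgeR adjusted p = 0.0126). Its partner, the ferroxidase fio1, had 15.4 and 11.9 CPM in input and 38.3 and 17.9 CPM in the Slr1p libraries (-0.76, SE 0.17, edgeR adjusted p = 0.0093). Of the nutrient-repressed list 3 of 24 were called, all lower, with a list median of -0.05. The siderophore transporter str3 (edgeR adjusted p = 0.15) and pho84 (0.227) lay in the same direction in both pairs without passing. Other uncalled members lay the other way in the fit or in both pairs: the iron-regulated sib1 was at 0.48 in input and -0.11 in the Slr1p pair, ctr4 at 0.41 and 0.22, ctr5 at 0.03 and 0.24, and amt3 at 0.92 and 0.13.

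With DESeq2 fio1, fip1 and eno102 were no longer called, at adjusted p = 0.087, 0.0559 and 0.668. With library totals in place of TMM str1, fio1, fip1 and urg2 were no longer called, with adjusted p between 0.889 and 1.00, and their fold changes were nearly the same.

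The fourth lower gene, SPBCPT2R1.04c, had 50 and 1 counts in input, a ratio of CPM of 48.9 (95% exact interval 8.38 to 1969, counting error only), and 36 and 3 in the Slr1p libraries, a ratio of 12.5 (3.94 to 63.3). Only 9.57% of its windows are unique, so its level is uncertain. None of the 143 ribosomal protein genes, and of the glycolysis list only eno102, was called. The test takes the average over both pairs, and the ribosomal protein medians were -0.21 in input and 0.10 in the Slr1p pair. The SE of abundant genes was also wide, with 0.39 for rpl26 and 0.44 for tdh1. These genes are therefore not shown to be alike in the 2 input libraries.

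**Figure D5:**
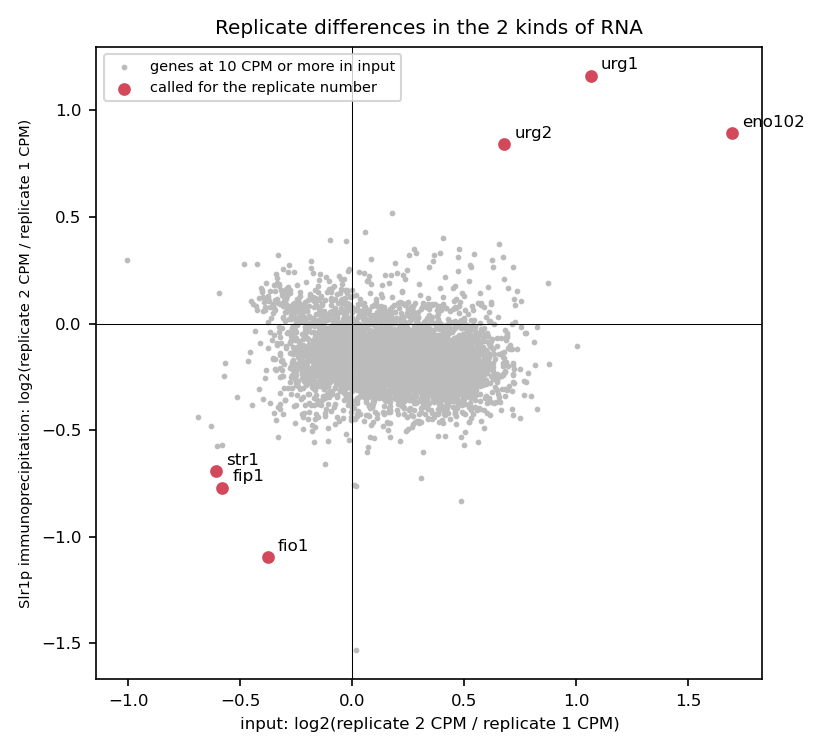
Log2 of replicate 2 CPM over replicate 1 CPM in the Slr1p libraries (y axis) against input (x axis); grey points are genes at 10 CPM or more in input and red points are 6 of the 7 genes called for the replicate number. The uracil-regulated genes urg1 and urg2 and eno102 lie in the upper right and str1, fip1 and fio1 in the lower left; SPBCPT2R1.04c, at -5.61 and -3.64, is outside the axes.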

How the data were processed

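The authors deposited unnormalized read counts, each library in its own file, with 6727 genes in each and 0 lines for unassigned reads. Per the submitters' processing notes, the tools were HTSeq 0.6.1p2, STAR 2.6.0c, Trim Galore, FastQC 0.11.5 and bcl2fastq 2.20. No source used here gives the genome build, annotation or treatment of reads with several matches. Per the labels, a directional kit and paired reads of 50 bp were used. Groups and replicate numbers came from the titles. Totals were 64236988 and 62802923 for input.

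Gene names, lengths, promoters and exon windows came from RefSeq assembly ASM294v3, which may not be the authors' build. Of the identifiers, 6531 matched exactly, 8 by a synonym and 31 after dropping a final "_1" (str1 among them). The other 157 have no length and no TPM. Function lists are exclusive. The genes to name were the 30 highest by CPM and 10 by TPM, the 3 highest and the lowest of each list, the 10 highest noncoding RNAs, the 10 largest replicate differences each way among genes at 10 CPM or more, and all nutrient, mating and marker genes. Members and lists were chosen with earlier results of these data known.

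The replicate number was tested with edgeR 4.0.16 (R 4.3.3), TMM and the package's expression filter, which removed 420 genes; p-values were adjusted by Benjamini-Hochberg. SE is the log2 fold change over the square root of F. Alternatives were DESeq2 1.42.0, library totals, no filter, TMM-scaled shares, TPM, coding genes only and single replicates. On data simulated for this test over 6276 genes, 91 of 100 genes changed 2-fold and 47 of 100 changed 1.5-fold were called, with 14 false calls.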

Additional observations from a re-analysis of the deposited data

How the results depend on the processing

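Of the planned and added alternatives, 44 values for the main results stayed within the limit set for them, and 9 did not. The limit was the spread of the replicates, or 1.5 times for counts. For the SD and median of the replicate difference it was a small fixed margin. The 44 include values with 1 replicate left out. For shares these had to stay within the spread, which is the SD of the same replicates. The same nearly held for concentration and complexes, so that part of the 44 is no check. By TPM, ribosomal proteins took 53.8% and glycolysis and fermentation 5.65%, the 10 and 100 most abundant genes took 9.48% and 52.0%, and 94 genes held 50% in place of 159. This follows from dividing by length. The SD of the replicate difference was 0.44 over all genes with a count, with 0.5 added, and its median was 0.0153 after TMM scaling. With 1 replicate left out, the share of ribosomal proteins ranged from 31.6% to 36.7% and that of glycolysis from 6.86% to 8.97%. HomolD was in 55 to 58 of the first 100 promoters under rankings added after seeing the data.

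The replicate number is the replicate block of the model for the input and Slr1p libraries, and the test of that block called 7 genes. DESeq2 called 4 and library totals called 3, all among the 7, and no filter called the same 7. At an unadjusted p under 0.05 DESeq2 gave 77 and library totals 58. Both are below a share of 0.05 of the genes tested, which p-values without any difference would give on average. The cause was not tested. The numbers did not pair the libraries over all genes: the replicate differences of the 2 kinds of RNA had r = -0.08 over 6307 genes. Leaving out 1 of the 4 libraries leaves no residual degree of freedom and was not run as a test. Depth was not the limit for abundant genes; 857 genes under 1 CPM in both libraries are described only as low.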
